A study of Mus musculus with 18 samples.

Results

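Chromatin accessibility at 10 genes of the NF-kB transcription factor system was examined in whole mouse retina. The genes were chosen by name: the subunits Nfkb1, Nfkb2, Rel, Rela and Relb, the inhibitors Nfkbia and Nfkbie, the nuclear regulators Bcl3 and Nfkbiz, and Tnfaip3. A region was counted for a gene when it overlapped the stretch from 10 kb before the annotated gene start to the gene end (mm10, GENCODE M21), which gave 33 of the 73567 accessible regions of the series and 10 of the 21951 genes compared.

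The series holds 18 ATAC-seq libraries, in which a transposase cuts open chromatin and peaks mark where cuts pile up, 1 retina to a library and 3 libraries in each of 6 groups. All mice were wild-type, at 3 months (3mo) or 18 months (18mo) of age. At each age, 1 group came from eyes whose intraocular pressure (IOP) was held at 30 mmHg for 1 hour, 1 from the opposite, contralateral eyes of IOP animals, and 1 from untreated animals. The labels give day 2 after IOP for collection, while the study's text gives another day. The sources do not say which libraries share an animal, so p-values measure only the spread between these libraries. The treatment text of the labels also describes dasatinib, without naming any library that received it. An unequal share of cells with open chromatin and an unequal opening per cell cannot be told apart in whole retina.

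NF-kB dimers of the Rel family are held in the cytoplasm by inhibitor proteins of the IkB family until receptors for cytokines or danger signals activate the IkB kinase. Rela, Rel and Relb carry the activating domain, whereas Nfkb1 and Nfkb2 make precursors that act as inhibitors until they are cut. Nfkbia and Nfkbie encode cytoplasmic inhibitors, Bcl3 and Nfkbiz encode nuclear members of the same inhibitor family that can also help activate target genes, and Tnfaip3 encodes a ubiquitin-editing enzyme that switches the pathway off. Several of these genes are themselves targets of NF-kB, so that the pathway limits its own activity.

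A set of 3 Bcl3 regions is shown first, since the largest differences among the 33 after IOP were found at this gene. They were chosen after their values were seen. Bcl3 lies on the minus strand of chromosome 7. Each sequence is given 5′ to 3′ on the strand of the gene, from the mm10 genome, in lower case with motif matches in capitals. The kappaB motif, bound by NF-kB dimers, was searched as GGG, a purine, 2 bases of any kind, 2 pyrimidines and CC, AP-1 as TGANTCA and STAT as TTCNNNGAA, on both strands of the 300 bases around the median summit. Bcl3_3, at chr7:19816307-19816543, lies 6.30 kb inside the gene and holds 2 STAT matches. Bcl3_4, at chr7:19817502-19817701, lies 5.17 kb inside the gene, in an intron of Bcl3 and of the antisense gene Gm16174, and holds 1 kappaB match. Bcl3_5, at chr7:19824268-19824467, lies 1598 bp before the gene start, in intergenic sequence, and holds 1 kappaB and 2 AP-1 matches.

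Bcl3_3: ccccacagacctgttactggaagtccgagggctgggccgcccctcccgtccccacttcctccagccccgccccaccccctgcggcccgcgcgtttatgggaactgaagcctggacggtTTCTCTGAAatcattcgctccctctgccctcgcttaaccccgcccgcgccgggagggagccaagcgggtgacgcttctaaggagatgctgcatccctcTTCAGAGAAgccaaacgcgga
Bcl3_4: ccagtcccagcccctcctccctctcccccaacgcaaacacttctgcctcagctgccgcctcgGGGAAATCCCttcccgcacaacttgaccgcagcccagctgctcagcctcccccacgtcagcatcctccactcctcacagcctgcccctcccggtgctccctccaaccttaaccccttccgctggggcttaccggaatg
Bcl3_5: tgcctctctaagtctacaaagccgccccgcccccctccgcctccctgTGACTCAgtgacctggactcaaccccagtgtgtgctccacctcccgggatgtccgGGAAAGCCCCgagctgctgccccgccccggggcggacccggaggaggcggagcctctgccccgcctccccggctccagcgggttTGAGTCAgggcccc

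The kappaB match of Bcl3_5, GGAAAGCCCC, was centred 8 bp from the median summit, and that of Bcl3_4, GGGAAATCCC, was centred 32 bp from it. A start region of a subunit and of each of 3 inhibitors held a kappaB match as well, and these are shown for comparison. They are Rel_1 (chr11:23771017-23771138), Nfkbia_1 (chr12:55491934-55492053), Nfkbie_6 (chr17:45555533-45555672) and Tnfaip3_5 (chr10:19015406-19015555), all on the strand of their gene, with kappaB and AP-1 matches in capitals. The match in Rel_1 is a pair that overlaps, shifted by 1 base.

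Rel_1: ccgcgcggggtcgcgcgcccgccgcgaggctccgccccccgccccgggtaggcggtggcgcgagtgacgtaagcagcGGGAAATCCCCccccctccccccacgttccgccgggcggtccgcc
Nfkbia_1: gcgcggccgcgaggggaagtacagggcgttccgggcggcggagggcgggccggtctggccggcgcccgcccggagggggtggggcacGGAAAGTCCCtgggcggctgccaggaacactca
Nfkbie_6: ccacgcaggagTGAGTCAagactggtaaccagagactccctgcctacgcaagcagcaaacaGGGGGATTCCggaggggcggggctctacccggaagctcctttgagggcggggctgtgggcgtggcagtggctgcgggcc
Tnfaip3_5: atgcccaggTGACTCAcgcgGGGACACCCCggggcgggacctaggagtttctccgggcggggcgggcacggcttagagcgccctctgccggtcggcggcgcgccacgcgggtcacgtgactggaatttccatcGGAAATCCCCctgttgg

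Of the 33 regions, 8 (24.2%) held a kappaB match, against 6.81% of all 73449 regions on named chromosomes. AP-1 matches were found in 6 regions (18.2%, against 9.10%) and STAT matches in 2 (6.06%, against 7.07%). The 33 regions were richer in G and C, with a median of 63.3% against 51.7% over all regions, and a match is a string of letters and not a measured binding site.

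A total of 9 of the 10 genes had a region over the annotated start that was called in all 18 libraries, and Bcl3 was the exception. Over all genes, 48.7% had such a start region and 43.3% had no region within 100 bp of the start. The start regions were Nfkb1_4, Nfkb2_1, Rel_1, Rela_1, Relb_2, Nfkbia_1, Nfkbie_6, Nfkbiz_2 and Tnfaip3_5. Nfkb2_1 also covered the start of AC114539.1. At Bcl3 no library had a region over the start, and the nearest one, Bcl3_5, ended 975 bp away from it.

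**Figure D1:**
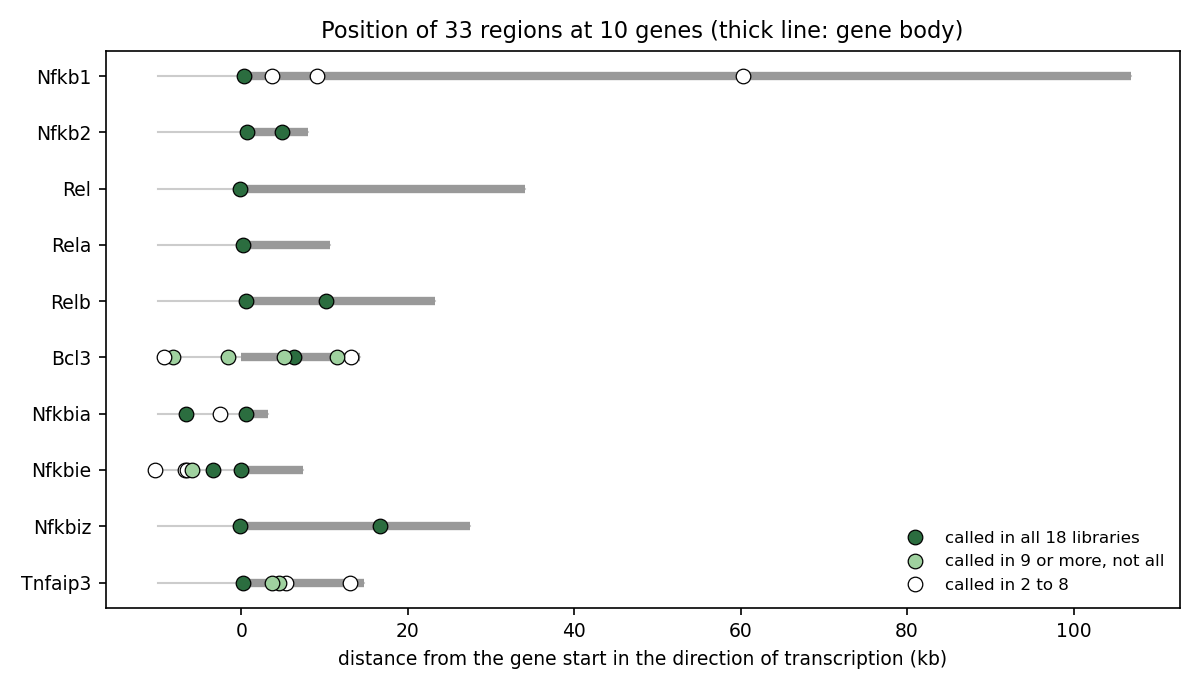
Position of the 33 regions along the 10 genes, with the distance of the median summit from the gene start on the horizontal axis (kb, positive into the gene) and one gene per line; the thick line is the gene body and the fill of each circle gives the number of libraries that called the region. Dark circles, called in all 18 libraries, sit at the start of every gene but Bcl3, whose 7 regions are spread from 9.26 kb before to 13.2 kb after its start.

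Rel and Rela each had 1 region in their window, with exactly 1 peak in each of the 18 libraries. Nfkb2, Relb and Nfkbiz had 2 regions, Nfkbia 3, Nfkb1 4, Tnfaip3 5, Nfkbie 6 and Bcl3 7. The median was 2.5 regions per gene against 2.0 over all genes, and 0.855 against 0.519 per 10 kb of window. Of the 33 regions, 15 (45.5%) were called in all 18 libraries, against 33.6% of all regions. Beyond the start regions these were Nfkb2_2 in an exon, Relb_1 in an intron, Bcl3_3, Nfkbia_3, Nfkbie_5 and Nfkbiz_1. Nfkbiz_1 covered an alternative Nfkbiz start 16.7 kb inside the gene, and Bcl3_3 covered the start of the antisense gene Gm16174. In the Nfkbie window 4 regions, Nfkbie_1 to Nfkbie_4, lay in or at the neighbouring gene Tmem151b, which the rule does not separate from Nfkbie.

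The lists held 36011 to 66160 peaks per library, and the number of reads behind them is unknown. Between 21 and 27 of the 33 regions were called in each library. The 3mo control libraries called 24.3 ± 2.34 of them (SD, n = 6), and the controls of 18mo called 23.2 ± 1.17 (SD, n = 6). Start regions of retinal neuron and glia markers were called in every library for 10 of 14 genes and in some for the other 4. No start region of the 8 microglia and leukocyte markers was called in any library, nor of 3 lens markers. Untreated libraries had shortest listed peaks of 79 to 89 bp, against 114 to 157 bp in the other 12 libraries, so that the kind of control and this property of the lists cannot be told apart.

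To compare strength, each region was ranked within its library. The rank is the percentage of the 24751 regions shared by all libraries that had a lower −log10 q-value (the strength of evidence written by the peak caller) in the same library, and it is 0 where the region was not called. It was chosen after the calls had been seen, because a call alone does not separate a weak peak from a strong one. Differences in rank, in percentage points, were tested with limma over the 43774 regions called in at least 9 libraries, which included 22 of the 33.

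At Bcl3, 5 regions, Bcl3_2 to Bcl3_6, ranked higher after IOP than in contralateral retinas. Each of them passed the limma test, and each had all 6 IOP libraries above all 12 control libraries. No region of the other 9 genes passed. Over all regions tested, 0.790% passed as higher and 0.123% as lower after IOP, and in 0.226% of the 73567 regions all 6 IOP libraries lay above all 12 controls (0.0666% below). Bcl3 encodes a nuclear partner of NF-kB dimers, and these regions lie on both sides of its start.

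At Bcl3_5, 1.60 kb upstream, the ranks after IOP were 50.1, 60.0 and 68.8 at 3mo and 61.4, 76.7 and 63.8 at 18mo. The contralateral libraries had 0, 37.4 and 0 at 3mo and 6.78, 0 and 2.53 at 18mo, and the untreated libraries 7.83, 10.2 and 5.70 at 3mo and 0.675, 2.42 and 10.4 at 18mo. The groups did not overlap, and 1 contralateral library, replicate 2 of 3mo, stood above the other controls. That library had the most peaks of all (66160) and was the highest contralateral library at each of the 5 regions. IOP exceeded contralateral by 55.7 ± 5.95 points (SE, limma, n = 6 against 6, adjusted p = 5.50e-05), the 3rd largest increase of the 73567 regions. Called peaks were 375 to 880 bp wide after IOP and 105 to 357 bp in controls, whereas at Bcl3_2, Bcl3_3, Bcl3_4 and Bcl3_6 the widths overlapped. These controls include the untreated lists, whose shortest listed peaks were shorter, and the part of that property in the widths was not tested.

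Bcl3_4 (chr7:19817189-19817921), in an intron of Bcl3 and Gm16174, ranked low in controls, where 10 of 12 libraries called it at −log10 q-values of 2.14 to 12.7. Its ranks were 36.9, 55.8 and 68.4 after IOP at 3mo and 50.7, 59.1 and 65.4 at 18mo. Contralateral libraries had 3.68, 6.59 and 0 at 3mo and 1.61, 0.0444 and 0.0121 at 18mo, and the 6 untreated libraries lay between 0 and 4.72. All controls were therefore lower than every IOP library. The difference was 54.1 ± 4.66 points (SE, limma, adjusted p = 5.85e-06).

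Bcl3_3 (chr7:19815938-19816822) was called in all 18 libraries, so that its calls alone showed no difference. Its ranks were 64.2, 69.2 and 69.7 after IOP against 14.7, 18.9 and 10.6 contralaterally at 3mo, and 57.8, 66.2 and 61.9 against 6.46, 3.07 and 11.7 at 18mo. Untreated libraries ranged from 8.80 to 26.3 at 3mo and from 1.74 to 16.4 at 18mo. Again no control reached the lowest IOP library. The increase of 53.9 ± 4.14 points (SE, limma) had the smallest adjusted p of the 33 regions, 2.79e-06. Since it covers the start of Gm16174 inside Bcl3, the data do not assign it to either gene.

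Bcl3_2 (chr7:19811102-19811686), in an intron of Bcl3 and of the antisense gene Gm16175, rose by 35.3 ± 4.13 points (SE, limma, adjusted p = 0.000126). Its ranks were 29.3 to 47.4 in the 6 IOP libraries and 0 to 18.4 in the 12 controls. The distal intergenic region Bcl3_6 (chr7:19830732-19831262), 8.18 kb upstream, rose by 29.3 ± 4.96 points (SE, limma, adjusted p = 0.00481), with ranks of 11.4 to 44.5 after IOP and 0 to 7.72 in controls. It was the smallest of the 5 differences, and its lowest IOP library was close to the highest control. With IOP and contralateral libraries alone in the fit it did not pass (limma, adjusted p = 0.0838). With the replicate number as a block in that fit, neither Bcl3_2 nor Bcl3_6 passed. The outermost Bcl3 regions were called in 8 libraries (Bcl3_1) and in 2, both after IOP (Bcl3_7), too few for the limma fit. Their rank differences were −2.34 and 0.798 points.

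**Figure D2:**
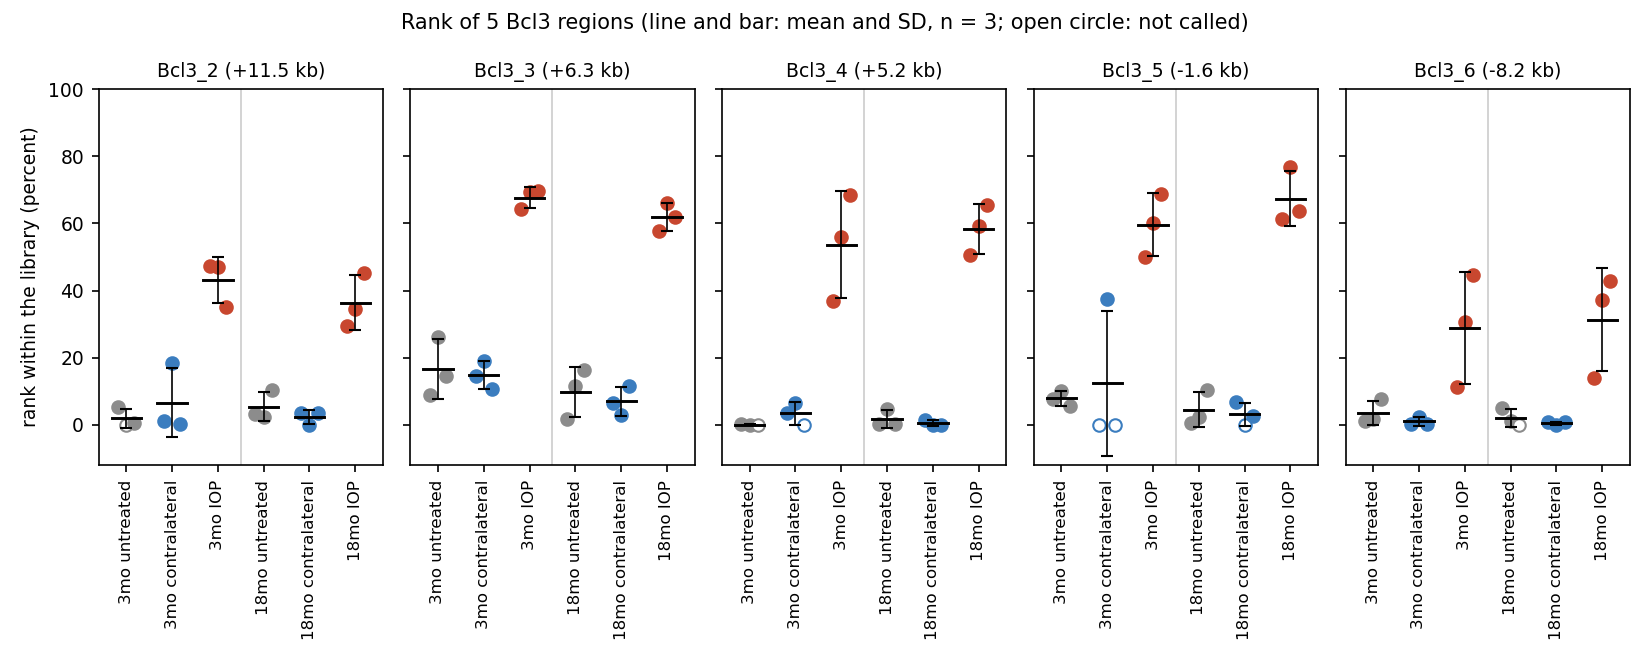
Rank of 5 Bcl3 regions within each library (vertical axis, percent) for the 6 groups of 3 libraries; each circle is a library, the line and bar are the mean and SD, and an open circle marks a library that did not call the region. In every panel the 6 IOP libraries lie above the 12 control libraries, from a gap between 37.4 and 50.1 at Bcl3_5 to one between 7.72 and 11.4 at Bcl3_6.

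The exact permutation test gave p = 0.00500 for each of the 5 regions, the smallest that 400 arrangements within age allow, and 0.467 after adjustment over 70565 regions, so that this test could not pass at this scale. When the libraries were also compared only within lists of like shortest peak, the differences were 33.7, 53.0, 50.7, 51.0 and 24.8 points for Bcl3_2 to Bcl3_6, each with an exact p of 0.00926, again the smallest possible. Ranked by the fold of the peak over its local background in place of the −log10 q-value, Bcl3_4, Bcl3_5 and Bcl3_6 passed (limma, adjusted p = 0.00986, 0.0332 and 0.00608), while Bcl3_2 and Bcl3_3 were higher by 23.6 and 23.8 points and did not (limma, adjusted p = 0.274 and 0.121). The folds of called peaks after IOP and in controls overlapped at all 5 regions, for Bcl3_3 at 6.66 to 10.3 against 5.37 to 9.64. Peak widths overlapped at Bcl3_2, Bcl3_3, Bcl3_4 and Bcl3_6, and not at Bcl3_5. For Bcl3_3 they were 517 to 846 bp against 177 to 670 bp. The −log10 q-values themselves overlapped at Bcl3_2 (15.5 to 29.2 against 2.93 to 18.8) and Bcl3_6 (11.2 to 20.1 against 2.93 to 11.6). They did not at the other regions.

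The increase was present at each age. At 3mo the differences of Bcl3_2 to Bcl3_5 were 36.5, 53.0, 50.3 and 47.2 points and each passed the limma test (adjusted p = 0.0168, 0.000990, 0.00288 and 0.0335), and Bcl3_6 differed by 27.8 points (limma, adjusted p = 0.259). At 18mo all 5 passed, with differences of 34.0, 54.9, 57.8, 64.2 and 30.8 points (limma, adjusted p = 0.00595, 9.70e-05, 0.000138, 0.000532 and 0.0440). Over all regions, 0.0982% passed as higher and 0.0160% as lower at 3mo, against 0.726% and 0.151% at 18mo. The difference between the ages in the response to IOP did not pass at any of the 22 regions (limma, smallest adjusted p = 0.961, 0 before adjustment), where over all regions 0.0114% passed with a higher response at 18mo and 0% with a lower one. For Bcl3_5, the response at 18mo exceeded that at 3mo by 17.0 ± 11.9 points (SE, limma).

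**Figure D3:**
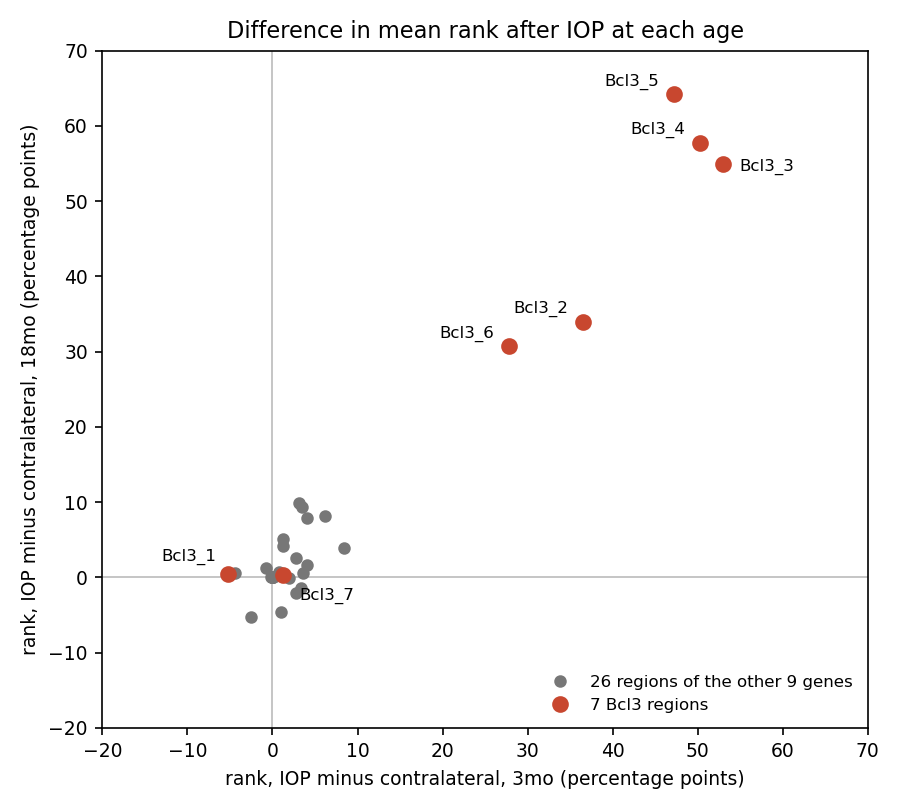
Difference in mean rank between IOP and contralateral libraries (percentage points) at 3mo on the horizontal axis and at 18mo on the vertical axis, for each of the 33 regions. The 5 regions Bcl3_2 to Bcl3_6 lie at 27.8 to 53.0 points on the 3mo axis and 30.8 to 64.2 on the 18mo axis, away from all other regions.

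Microglial markers were set beside this result, since Bcl3 is also used by leukocytes. No start region of these 8 markers was called in any library, and Ptprc and Itgam had no region at all. The ranks summed here come from regions away from the starts, including 4 at Cx3cr1 that all 18 libraries called. Such sums do not measure the share of microglia or leukocytes. The 16 regions in the windows of the 8 microglia and leukocyte markers had summed ranks of 501 to 554 in contralateral and 514 to 564 in IOP libraries at 3mo, and of 493 to 505 and 487 to 526 at 18mo. These ranges overlapped, and none of the 12 regions in the fit passed after IOP (limma, smallest adjusted p = 0.363). Before adjustment 1 of the 12 was higher, where over all regions 5.54% were higher and 4.82% lower. This was Cx3cr1_4, a weak region 67626 bp inside the gene of a microglial chemokine receptor, by 3.10 points (exact permutation p = 0.0100). Its ranks at 18mo were at most 0.0364 contralaterally and 1.49 to 10.8 after IOP, and at 3mo at most 0.0970 and 0.0485 to 2.77. It thus moved with the Bcl3 regions at 18mo, where 4.67% of all regions had IOP ranks all above the contralateral ranks. Its part in the Bcl3 increase was not tested. Endothelial markers had summed ranks of 59.3 to 78.6 and 40.7 to 60.0 at 3mo and of 52.9 to 74.7 and 68.9 to 71.8 at 18mo in the same order.

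The 9 pigment epithelium regions, for which the start of 1 of 5 marker genes was called in some libraries and the other 4 in none, had summed ranks of 327 to 379 contralaterally and 315 to 347 after IOP at 3mo. At 18mo they had 319 to 328 and 285 to 294, lower after IOP without overlap, while none of the 8 in the fit passed (limma, smallest adjusted p = 0.242). The part of this difference in the Bcl3 increase was not tested. The pigment epithelium gene with a called start was Rlbp1, which is also in the list of retinal neuron and glia markers. Its window held 4 of the 9 regions, including the only 1 that was lower after IOP with an exact permutation p under 0.05. For retinal neuron and glia markers, with 62 regions, the summed ranks were 1070 to 1170 and 1110 to 1210 at 3mo and 1010 to 1130 and 1120 to 1300 at 18mo. The 3 lens regions had 40.8 to 60.3 and 40.3 to 51.4 at 3mo and 28.1 to 49.7 and 24.9 to 38.7 at 18mo, and both of these lists overlapped at each age.

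Outside Bcl3, 26 regions differed after IOP by −3.90 to 7.15 points, with a median of 0.563, against 35.3 for the 7 Bcl3 regions and −0.00135 over all regions. Among the 17 of them in the fit the smallest adjusted p was 0.339 (limma). Before adjustment 1 was higher, where over all regions 5.54% were higher and 4.82% lower. At 3mo, 6 of the 33 regions had IOP ranks all above the contralateral ranks and 0 had them all below, against 2.78% and 2.41% of all regions. At 18mo the numbers were 7 and 1, against 4.67% and 6.66%. Besides the 5 Bcl3 regions these were Rel_1 at 3mo, Nfkbiz_1 and Tnfaip3_5 as higher at 18mo, and Nfkbie_4 as lower.

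Nfkb1_4, the start region of the precursor gene Nfkb1, had the lowest mean rank of the start regions, 15.5. Its ranks were 23.6, 26.4 and 29.9 after IOP against 18.9, 18.7 and 23.9 contralaterally at 3mo, and 27.9, 17.5 and 16.2 against 7.30, 9.37 and 20.4 at 18mo. The ranges overlapped at both ages. It had the largest difference outside Bcl3, 7.15 points, with an exact permutation p of 0.0400.

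Nfkbiz_1 had the highest mean rank of the 33 regions, 78.9, and lies at the inner start of the nuclear regulator Nfkbiz. After IOP its ranks were 89.0, 79.8 and 84.1 against 77.6, 80.3 and 82.9 at 3mo, and 80.9, 86.7 and 87.3 against 76.8, 75.3 and 79.1 at 18mo. The groups were apart at 18mo and overlapped at 3mo. The difference of 5.96 points (exact permutation p = 0.0200) did not pass over all regions.

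The start regions of the activating subunits were strong in every group. Rel_1 had a mean rank of 77.4 (range 64.1 to 86.2), Relb_2 of 74.9 (65.2 to 84.0) and Rela_1 of 72.8 (57.8 to 81.5). Among the inhibitors, Nfkbie_6 had a mean rank of 77.8 (65.6 to 86.8), Nfkbia_1 of 75.1 (63.9 to 87.4) and Nfkbiz_2 of 67.7 (57.9 to 75.0). These ranges overlap, and no order among them is read from the means. Tnfaip3_5 had a mean rank of 56.0, with 35.0 to 43.9 in the untreated libraries and 54.0 to 78.2 in the others. The latter reached from below the lowest rank of the regions above, 57.8, into their span. Nfkb2_1 had a mean rank of 40.4 (21.7 to 53.1).

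**Figure D4:**
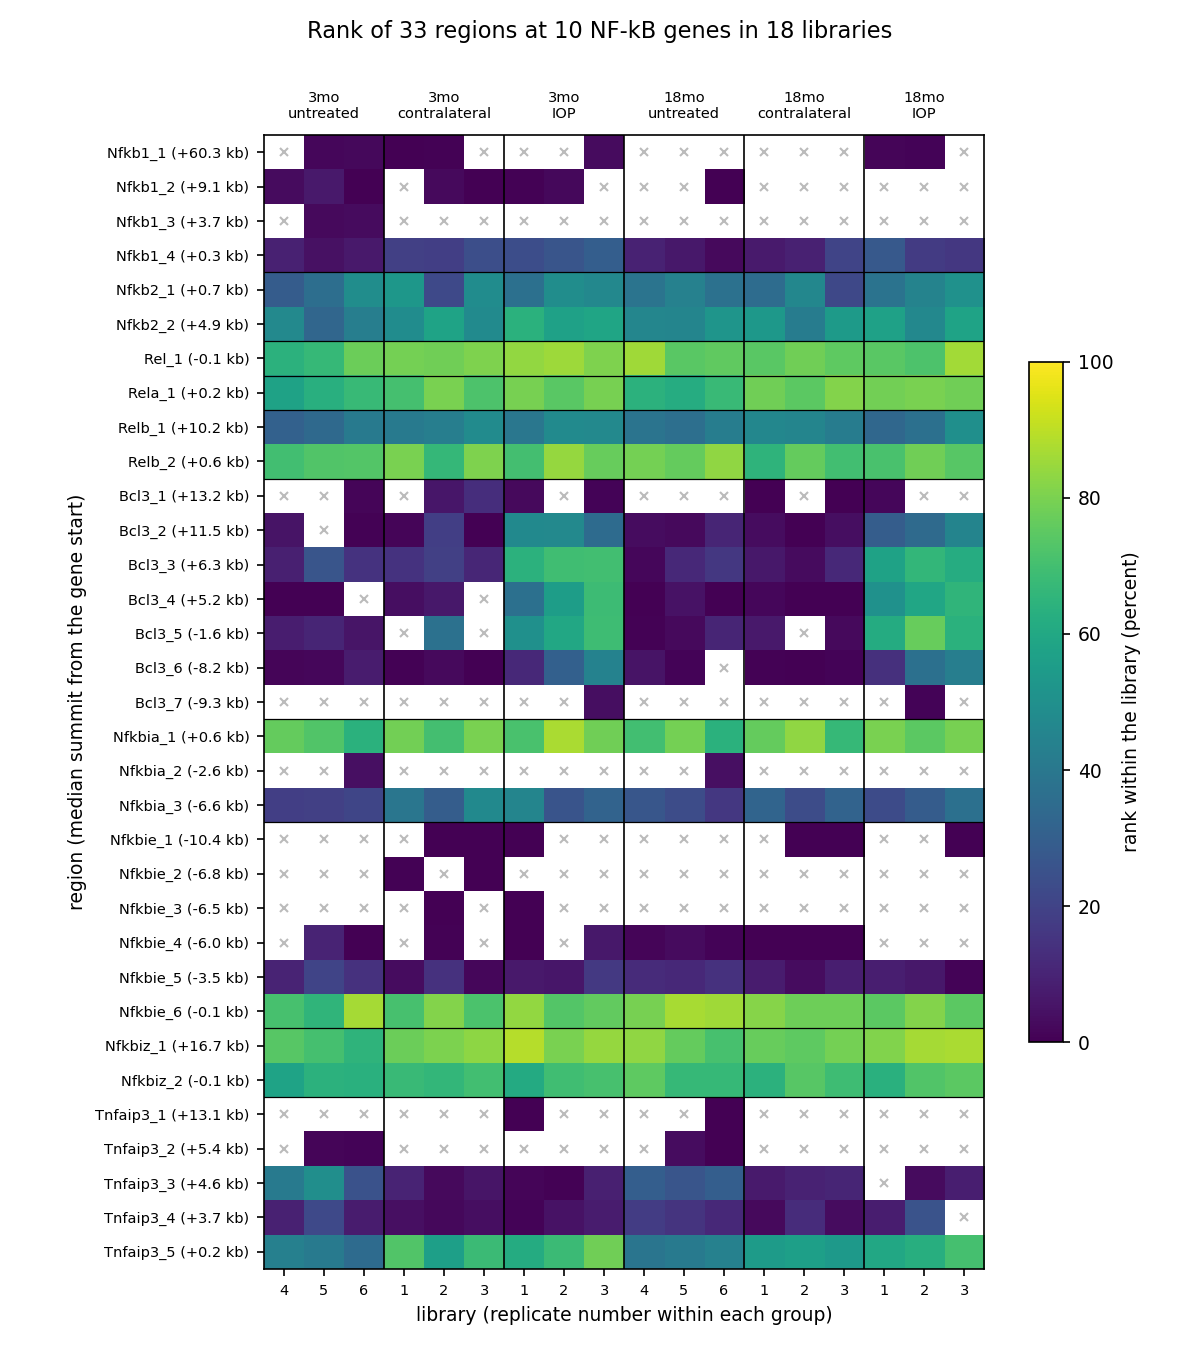
Rank within the library (colour, percent) of the 33 regions (rows, with the distance of the median summit from the gene start) in the 18 libraries (columns, in 6 groups), with a cross where a library did not call the region. Start regions such as Rel_1, Rela_1 and Nfkbie_6 are high in every column, whereas in each of the 5 rows Bcl3_2 to Bcl3_6 every IOP column is above every control column, the highest control being 1 contralateral library at 37.4 for Bcl3_5.

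Age was compared between 6 control libraries of 18mo and 6 of 3mo. No member region passed by calls (2 could reach p = 0.05 by Fisher's exact test, 0 passed before or after adjustment), where before adjustment 3.19% of all regions had more calls at 18mo and 0.385% had more at 3mo. None was called in all 6 libraries of one age and in none of the other, as were 0.0788% (18mo) and 0.00544% (3mo) of all regions. By rank the differences of the 33 regions ran from −7.21 to 7.01 points, and 0 of 22 passed (limma, smallest adjusted p = 0.318, 1 before adjustment), where over all regions 1.43% passed as higher and 0.624% as lower at 18mo. The 1 before adjustment was the start region Nfkbie_6, higher at 18mo by 7.01 points (limma, unadjusted p = 0.0361), where 8.24% of all regions were higher and 5.38% lower before adjustment.

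The clearest age pattern in the calls lay in introns of Nfkb1. Nfkb1_2 (chr3:135682380-135682692), 9.06 kb inside the gene, was called in 5 of 6 controls at 3mo and in 1 of 6 at 18mo (Fisher's exact p = 0.0801). Its ranks at 3mo were at most 6.90, so that it was a weak peak where present. The rank difference of −2.07 points had an exact permutation p of 0.0411 and 0.780 after adjustment. Nfkb1_1 (chr3:135630863-135631511), 60.3 kb inside the gene, was called in 4 of 6 and 0 of 6 (Fisher's exact p = 0.0606), and in 2 of the 3 libraries after IOP at 18mo.

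By calls, no member region passed for IOP (4 could reach p = 0.05 by the exact test stratified by age, 0 passed before or after adjustment), where over all regions 1.62% were called more often and 3.43% less often before adjustment. Regions that all 3 libraries of a group called and none of the compared group called made up 0.217% (gained) and 0.241% (lost) of all regions at 3mo, and 0.239% and 2.23% at 18mo. The members had 1 such region, Nfkbie_4, lost at 18mo. It lies at the promoter of Tmem151b, 5.98 kb before Nfkbie (chr17:45549614-45549974), and is shown with its kappaB match in capitals, from chr17:45549726-45549855.

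Nfkbie_4: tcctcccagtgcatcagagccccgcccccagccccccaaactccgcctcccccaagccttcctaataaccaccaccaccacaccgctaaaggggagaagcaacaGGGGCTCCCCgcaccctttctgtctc

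Nfkbie_4 had ranks of 0.0444, 0.0727 and 0.0162 in the 18mo contralateral libraries, 1.29, 3.09 and 1.10 in the untreated ones and 0 after IOP. At 3mo it was called in 2 untreated, 1 contralateral and 2 IOP libraries. In the contralateral libraries of 18mo the −log10 q-values of its peaks were 3.78, 3.02 and 3.65.

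The number of peaks in the windows passed for 0 of 8 genes with varying numbers with age and for 0 of 6 after IOP, before or after adjustment of the exact permutation tests. Over all genes, 1.77% had more and 0.215% fewer peaks at 18mo, and 0.160% more and 1.36% fewer after IOP, before adjustment. Bcl3 had 6, 5 and 7 peaks after IOP against 4, 6 and 4 contralaterally at 3mo, and 6, 6 and 5 against 6, 4 and 6 at 18mo. Its numbers overlapped, unlike its ranks. Nfkb1 had 2, 3 and 2 peaks after IOP at 18mo against 1, 1 and 1 contralaterally, which did not overlap, but untreated libraries of that age had 4, 4 and 5. At 3mo its IOP and contralateral libraries both had 2 to 3 peaks, and over both ages the exact permutation p was 0.200.

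Untreated and contralateral libraries were compared as well, because both serve as controls for age. By calls, 5.89% of all regions were more frequent in untreated and 5.55% in contralateral libraries before adjustment, and 0 of the members' 2 testable regions were. By mean number of peaks, untreated libraries had 3.00 more at Nfkb1 (exact permutation p = 0.00433, adjusted p = 0.206). At Tnfaip3 they had 1.33 more (exact permutation p = 0.0411, adjusted p = 0.442). By rank, 14.7% of regions passed as higher and 10.0% as lower in untreated libraries. Among the members Tnfaip3_3, in an intron, was higher by 25.9 ± 3.86 points (SE, limma, adjusted p = 0.000151), and the start region Tnfaip3_5 was lower (−19.8 ± 3.26 points, SE, limma, adjusted p = 0.000351). Rela_1 (−12.6 points, limma, adjusted p = 0.000435), Nfkbia_3 (−13.1, 0.0437) and Nfkb1_4 (−9.90, 0.0460) were also lower. None of the 5 Bcl3 regions in the fit passed in this comparison, with differences of −1.58 to 2.34 points (limma, smallest adjusted p = 0.727). Before adjustment alone, Tnfaip3_4 (+9.10 points, limma, adjusted p = 0.0853) and Nfkbie_5 (+7.26, 0.0740) were higher and Nfkbiz_1 (−5.26, 0.105) lower in untreated libraries.

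Nfkbia_2, 2.62 kb before the gene start (chr12:55495202-55495311), was called only in the untreated libraries numbered 6, with ranks of 4.14 at 3mo and 3.98 at 18mo. The 300 bases around its summit held a kappaB match, GGGAATTCCC. It was called too rarely for a test of its calls to pass.

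The wider pathway was followed in 42 genes. All 7 kinase genes, which include the subunits of the IkB kinase, had a start region called in all 18 libraries, as did 8 of 15 receptors and adaptors and 4 of 6 other inhibitors. Of all 42 genes, 20 had such a start region and 15 had none called in any library. Over all genes of the series, 48.7% had such a start region and 43.3% had no region within 100 bp of the start. Of 14 known NF-kB targets, mainly cytokines, chemokines and adhesion molecules, only Bcl2l1, which encodes a survival factor, had such a start region, and 9 had none called in any library. Among these 9, Sod2 had a region that did not count as a start region, with its summit 1000 bp inside the gene. All 18 libraries called it, at ranks of 91.4 to 98.9. Csf2, Traf1 and Cxcl10, also among these 9, each had a region away from the start, called in 18, 15 and 3 libraries. Csf2_1 had ranks of 14.9 to 49.3. The windows of the 42 genes held 87 regions. By rank, 57 were in the fit and none passed after IOP (limma, smallest adjusted p = 0.0648) or with age (smallest adjusted p = 0.269). Before adjustment 5 were higher and 1 lower after IOP, and 1 was higher and 0 lower at 18mo. Over all regions 5.54% were higher and 4.82% lower after IOP before adjustment, and 8.24% were higher and 5.38% lower at 18mo. The receptor adaptor region Myd88_1 was higher by 4.94 points (exact permutation p = 0.00500, limma, adjusted p = 0.0648), and Tnfrsf1b_1, in a gene of a tumour necrosis factor receptor, differed by −15.1 points (exact permutation p = 0.0200, limma, adjusted p = 0.0924). The difference between these regions and those of Bcl3 was not tested.

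In this wider set of 87 regions, 1 region was gained after IOP at 3mo, 1 was gained at 18mo and 1 was lost at 18mo. Over all regions, 0.217% were gained at 3mo, and 0.239% were gained and 2.23% lost at 18mo. The region gained at 3mo lies 5523 bp inside Tnfrsf1a (chr6:125354510-125355276), the gene of a receptor for tumour necrosis factor. It was singled out after its values were seen. Its ranks were 0 in all 3mo contralateral libraries and 0.408 to 16.4 after IOP, and at most 0.242 contralaterally and 1.68 to 39.6 after IOP at 18mo. The groups did not overlap at either age, and the difference was 18.6 points (exact permutation p = 0.00500, the smallest possible). It was called in 8 libraries, too few for the limma fit. The region gained at 18mo was Bcl2l1_4, with ranks of 0 contralaterally and 0.558 to 4.30 after IOP, and the one lost was Traf6_3, with 0.00404 to 0.642 contralaterally and 0 after IOP.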

How the data were processed

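Whole retinas were profiled by ATAC-seq in 18 libraries. The study's text gives MACS2 and a q-value of at most 0.05, and the deposited lists are 1 for each library; the submitters' processing notes also name STAR 2.7.8a and bedtools 2.29.2. How duplicates and the transposase offset were handled is not given in the sources used here. The deposited lists hold, for each peak, a score from the authors' peak caller, the fold (ratio) over local background, and the −log10 of the p-value and q-value. These depend on depth, which is unknown, so only ranks within a library were compared. The label text on preparation describes crosslinking, the methods tagmentation of fresh nuclei.

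Peaks overlapping by at least 1 bp were merged (99792 regions, of 911837 peaks), and those called in at least 2 libraries kept (73567). Promoter means 1 kb before to 100 bp after a start. Calls were tested with Fisher's exact test (age, control kind) or an exact test stratified by age (IOP), peak numbers with exact permutation tests, all two-sided with Benjamini-Hochberg adjustment over all regions or genes at 0.05. Ranks were fitted with limma 3.58.1 (6 group means, trend) in R 4.3.3, and the scripts were tested on simulated data. The study's count model needs reads and was not used.

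All members were named, with each start region, each exclusive region, each region with an unadjusted p under 0.05 in a region test, the strongest region of each member, and regions with a kappaB match; sequences were limited to 8. The members and lists were chosen with earlier results of these data known. No source says whether same-numbered IOP and contralateral libraries share an animal, so the main tests did not pair them. The correlation of their deviations ran from −0.0486 to 0.121, which cannot show whether they do. No 2 lists shared more than 0.105% of their peaks exactly. In the windows, 3 regions of 1 library alone were left out.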

Additional observations from a re-analysis of the deposited data

Results flagged for a closer look

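Each gene's peak number and each shared region's rank were searched for 1 control library that stands apart from the other 5 of its age (Dixon's test). Of 50 such groups 6 were picked out, where chance alone picks about 1 in 20 groups of untied values. In 4 of the 6 the other 5 counts were equal, and that rate does not apply to them. The rank of Rel_1 was 85.8 in replicate 4 of 18mo untreated, the highest of the 6. Nfkb2 had 4 peaks in replicate 3 of 18mo contralateral. Nfkbia had 3 peaks in replicate 6 of 18mo untreated and 3 in replicate 6 of 3mo untreated. Nfkbiz had 3 peaks in replicate 6 of 3mo untreated, and Tnfaip3 had 6 peaks in replicate 6 of 18mo untreated. Both libraries numbered 6 are untreated, and the part of the short peaks listed in that group was not tested.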

How the results depend on the processing

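The calls by age and by IOP had smallest adjusted p of 0.345 and 0.397 over all regions, so that their counts of 0 under every setting say nothing about stability. The increase in rank at the 5 Bcl3 regions passed without each of the 12 IOP and contralateral libraries in turn (limma, adjusted p at most 0.0166). Their differences ran from 33.0 to 38.2 (Bcl3_2), 52.9 to 55.1 (Bcl3_3), 50.4 to 58.3 (Bcl3_4), 52.6 to 61.9 (Bcl3_5) and 25.4 to 33.7 (Bcl3_6). Ranked by fold, 3 passed. With the replicate block, 3 passed (Bcl3_3, Bcl3_4 and Bcl3_5 with adjusted p = 0.00842, 0.0409 and 0.0456 by limma, Bcl3_2 and Bcl3_6 with 0.107 and 0.234), and over all regions the block left 20 higher and 0 lower against 346 and 54 without it. For calls and peak numbers by age and IOP, the counts with the block were 0 as without it, and it was not run for the other comparisons. Same-numbered libraries correlated best with their own number in 3 of 6 cases. Bcl3_6 also lost its call with IOP and contralateral libraries alone (0.0838) and with the shortest-peak class as a covariate (0.0528).

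When a peak had to cover 50% of a region, 2 regions were gained at 3mo (Bcl3_4 and Bcl3_5) and 1 at 18mo (Bcl3_3), 0 were lost at 18mo, and 3 passed between control kinds (Nfkb1_4, Nfkbia_3 and Nfkbie_5). With equal numbers of peaks, 2 were gained (Bcl3_4 and Bcl3_6) and 0 lost at 18mo. With the gene body alone 0 were lost, since Nfkbie_4 lies before the gene start and outside that window. Leaving out 1 library gave 0 to 1 gained and 0 to 1 lost at 3mo (Bcl3_5 and Nfkbie_2, both without replicate 2 of 3mo contralateral), 0 to 1 gained at 18mo (Nfkb1_1, without replicate 3 of 18mo IOP) and 1 lost each time. The cause of the other changes was not tested. With untreated or contralateral libraries alone, an exact permutation test of 3 against 3 cannot go below p = 0.1 for peak numbers. The lists hold no reads, so a region not called may be open below the threshold.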
